A study of Mus musculus with 12 samples.

Results

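The 10 genes described here encode secreted proteins that start, strengthen or restrain Wnt signalling in cultured mouse fat cells: the ligands Wnt10b, Wnt10a, Wnt6, Wnt5a and Wnt5b, the R-spondins Rspo2 and Rspo3, and the antagonists Sfrp1, Sfrp2 and Dkk3. They were taken by gene symbol from a table of 24341 genes, in which all 10 were found. Their levels were not used to choose them, but earlier results of these data were known when they were chosen. RNA was sequenced to examine gene expression while preadipocytes become adipocytes, in cells that keep or lack the gene Acly. Its product, ATP citrate lyase, splits citrate in the cytosol and nucleus and so supplies acetyl-CoA there.

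All cells were preadipocytes from adipose tissue of C57Bl/6 mice, immortalised with SV40. Aclyf/f cells, whose Acly gene carries floxed (f) alleles on both copies, were the controls, and Acly-/- cells, by their label, lacked the gene. Each genotype was sampled as preadipocytes on day 0 and as adipocytes on day 4, after confluent cultures had received a standard adipogenic cocktail with rosiglitazone, an activator of PPARgamma. Each of these 4 groups had 3 libraries. The sources used here do not give whether replicates were separate cultures, clones or animals, nor how Acly was deleted, so all p-values measure no more than the spread between libraries. Values are FPKM, fragments per transcript length and library size, and a value of 0.01 is the floor of the table.

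Wnt proteins carry a lipid and bind Frizzled receptors. Together with the co-receptors Lrp5 and Lrp6 they stabilise beta-catenin, which then acts with TCF and LEF factors on target genes, while other Wnts such as Wnt5a mostly act without beta-catenin. R-spondins bind Lgr receptors and keep Frizzled receptors on the cell surface, Sfrp proteins bind Wnts outside the cell, and Dkk proteins mostly block the Lrp co-receptors. In fat tissue Wnt signalling through beta-catenin is known for holding preadipocytes undifferentiated, and Wnt10b is the ligand best known for it.

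The sequences before a start site of Wnt10b and Sfrp2 are shown because these genes moved in opposite directions when Acly was lost from preadipocytes. They are the 250 bases before that RefSeq start (GRCm38.p6, the assembly that mm10 names), written 5′ to 3′ on the gene's strand, with CG dinucleotides in capitals. The Wnt10b window is chr15:98778151-98778400 on the minus strand and the Sfrp2 window is chr3:83766071-83766320 on the plus strand. Both end where the gene of the deposited table begins. RefSeq also has longer gene spans, so that Wnt10b (to 98778206) reaches into its window and Sfrp2 (from 83765750) covers its window wholly.
Wnt10b: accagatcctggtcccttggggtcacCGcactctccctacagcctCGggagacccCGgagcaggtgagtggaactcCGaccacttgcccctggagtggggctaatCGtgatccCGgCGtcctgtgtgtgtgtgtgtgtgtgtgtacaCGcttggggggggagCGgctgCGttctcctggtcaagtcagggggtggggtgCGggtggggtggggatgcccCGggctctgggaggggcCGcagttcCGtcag
Sfrp2: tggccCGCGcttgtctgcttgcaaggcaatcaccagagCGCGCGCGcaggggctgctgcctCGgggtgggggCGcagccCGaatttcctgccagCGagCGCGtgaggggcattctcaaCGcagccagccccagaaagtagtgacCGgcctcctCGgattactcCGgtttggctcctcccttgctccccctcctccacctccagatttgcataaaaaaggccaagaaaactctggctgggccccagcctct
Both windows are rich in G and C, at 66.8% for Wnt10b and 63.6% for Sfrp2. They hold 14 and 16 CG dinucleotides, where the median over 32851 RefSeq promoter windows of this length is 6 and the quartiles are 2 and 16. None of 8 motifs was found on either strand of either window: the TCF/LEF core CTTTGA (present in 13.8% of all windows), the E-box CACGTG (6.02%), the cyclic AMP element TGACGTCA (1.55%), the ATF4 composite TGATGNAA (3.45%), an interferon-type element of GAAA, any 2 bases and GAAA (2.98%), the CCAAT box CCAAT (33.8%), the GC box GGGCGG (32.7%) and the TATA box TATAAA (12.4%). This says only that these letters are not in these windows. Of the 10 genes, 4 were in the promoter table (Wnt10b, Wnt6, Wnt5b and Sfrp2).

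The libraries held an estimated 6961000 to 13325000 fragments, and 10977 to 11143 genes in each reached 1 FPKM. The targeted gene stood at 89.5, 86.2 and 84.9 FPKM in the control preadipocyte libraries and at 814, 722 and 724 FPKM in control adipocytes. In Acly-/- cells it stood at 11.9, 12.4 and 11.9 FPKM before differentiation and at 13.2, 12.8 and 11.02 FPKM after it, below all control libraries. Some Acly RNA thus remained in Acly-/- cells, and what it stands for was not tested. Adipocyte markers (10 genes) summed to 580 to 595 FPKM in control and 242 to 278 FPKM in Acly-/- preadipocytes. After differentiation they summed to 11160 to 11750 FPKM in controls and 5953 to 7385 FPKM without Acly. The defining adipocyte gene Adipoq reached a mean of 544 FPKM in control adipocytes and 60.7 FPKM in those without Acly, while Lep, which encodes leptin, was at the floor in all 12 libraries. Preadipocyte markers (8 genes) summed to 701 to 799 and 880 to 1200 FPKM in control and Acly-/- preadipocytes, and to 183 to 243 and 754 to 802 FPKM in the corresponding adipocytes. The preadipocyte sums were mostly Ly6a (466.5 and 834 FPKM in preadipocytes with and without Acly, 128 and 649 FPKM in adipocytes). The adipocyte sums were mostly Fabp4 (507 and 201 FPKM, then 8835 and 6113 FPKM). In preadipocytes Pdgfra and Ebf1 went against Ly6a, from 131 and 51.7 FPKM with Acly to 72.1 and 42.0 FPKM without. By these sums Acly-/- adipocytes carried more of the preadipocyte sum and less of the adipocyte sum than Aclyf/f adipocytes. The part of this difference in the results that follow was not tested, and in whole cultures fewer cells of a type and less RNA per cell cannot be told apart.

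Of the 10 genes, 7 reached 1 FPKM in at least 3 libraries and were tested, in one limma fit over 11777 genes. Wnt10a, Wnt6 and Wnt5b did not. A gene that passed this filter through a single group had to differ from the others: Wnt10b passed only through Acly-/- preadipocytes, Dkk3 only through Aclyf/f preadipocytes, Wnt5a and Sfrp2 only through preadipocytes, and Rspo3 only through Aclyf/f cells. The counts that follow therefore only describe the genes. So do the p-values of contrasts that set the groups through which a gene passed against others. Loss of Acly in preadipocytes changed 5 of the 7 at a limma adjusted p under 0.05 (1 higher, 4 lower), where 42.2% of all genes tested were called (19.7% higher and 22.4% lower). Loss of Acly in adipocytes changed 3 (2 higher, 1 lower), where 54.8% of all genes were called (25.6% higher and 29.2% lower). With all libraries rescaled to the same FPKM sum, the share of rises among all called genes moved from 46.8% to 34.5% in preadipocytes and from 46.7% to 36.4% in adipocytes. Acly-/- preadipocyte library 3 had an FPKM sum of 608176, of which 8.90% was Snord12, a small RNA. The other preadipocyte libraries summed to 506420 to 522747. The part of that library in the shift was not tested. Differentiation lowered 5 of the 7 in Aclyf/f cells and 6 in Acly-/- cells and raised none, where 72.5% of all genes were called in Aclyf/f cells (36.5% higher and 36% lower) and 61.4% in Acly-/- cells (30.4% higher and 31% lower). The change with differentiation differed between genotypes for 5 of the 7 (4 higher, 1 lower), where 50.2% of all genes were called (23.7% higher and 26.4% lower). These comparisons share libraries, so their values are set side by side and not correlated.

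**Figure D1:**
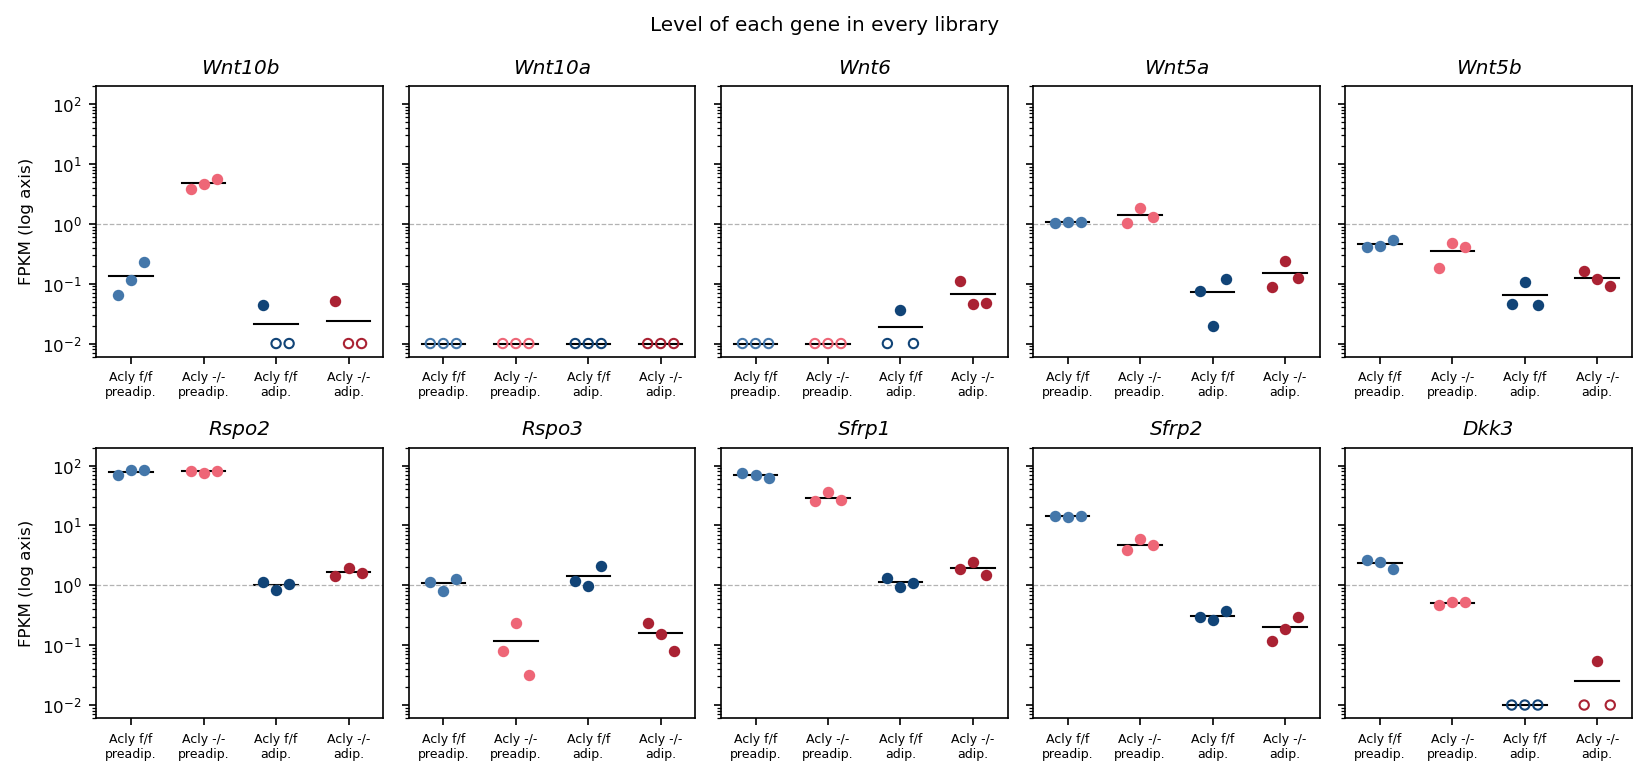
FPKM of each of the 10 genes in every library, on a log axis. Each point is 1 library, open points lie at the floor of 0.01 FPKM, the bar is the mean of 3 libraries and the dashed line marks 1 FPKM. Wnt10b stands at 3.81 to 5.69 FPKM in Acly-/- preadipocytes and under 0.3 FPKM in all other libraries, and Rspo2, Sfrp1 and Sfrp2 fall in adipocytes of both genotypes.

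Among the ligands, Wnt10b (chromosome 15, 98771752 to 98778150, mm10) showed the largest change with genotype. It stood at 0.0654, 0.117 and 0.229 FPKM in Aclyf/f preadipocytes and at 3.81, 4.64 and 5.69 FPKM in Acly-/- preadipocytes. In adipocytes it was at the floor in 4 of 6 libraries and at 0.0433 FPKM in Aclyf/f library 1 and 0.0517 FPKM in Acly-/- library 1. The Acly-/- preadipocytes were thus the only group above 1 FPKM and overlapped no other group, while the groups of adipocytes overlapped each other. The mean in preadipocytes was 34.4-fold higher without Acly (log2 fold change of FPKM + 1, 2.32, SE 0.12, adjusted p = 1.05e-08). In Acly-/- cells it then fell with differentiation by 2.47 on the log2 scale (adjusted p = 6.59e-10). In Aclyf/f cells the log2 change was -0.15 (adjusted p = 0.253), and with a pseudocount of 0.1 FPKM in place of 1 it was -0.92 (adjusted p = 0.0247). The genotypes differed in this change by -2.31 (SE 0.16, adjusted p = 1.58e-07). Wnt10b passed the filter only through Acly-/- preadipocytes, so the p-values of contrasts with that group only describe it. In adipocytes no difference between genotypes was detected (log2 fold change 0.00, adjusted p = 0.981).

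Depth limits what can be said of Wnt10b outside Acly-/- preadipocytes. Converted into fragments by the estimated depth, its values came to 8 fragments in the Aclyf/f preadipocyte libraries together and 326 in the Acly-/- preadipocyte libraries. Relative to the fragments sequenced, this was a ratio of 32.8 (95% exact interval 16.5 to 76.7, for counting error only). The adipocyte groups held 1 fragment each. The level in Acly-/- preadipocytes was 319 times that in Acly-/- adipocytes (exact interval 56.9 to 12650), and the level in Aclyf/f preadipocytes was 11.3 times that in Aclyf/f adipocytes (1.51 to 502). The upper ends of the adipocyte intervals are wide because they rest on a single fragment.

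Wnt10a (chromosome 1, 74792019 to 74804175), a close relative of Wnt10b, was at the floor in all 12 libraries. Wnt6 (chromosome 1, 74771892 to 74785319), its neighbour, lies 6699 bases away with no other gene of the table between. It was at the floor in all 6 preadipocyte libraries and in Aclyf/f adipocyte libraries 1 and 3, and stood at 0.0367 FPKM in library 2. In Acly-/- adipocytes it stood at 0.112, 0.0456 and 0.0473 FPKM, values that rest on 2 fragments or fewer each, and it was not tested. Wnt1, the neighbour of Wnt10b at 11706 bases, was at the floor in all 12 libraries.

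Wnt5a (chromosome 14, 28505473 to 28525515), the ligand best known for signalling without beta-catenin, followed the stage of the cells. It stood at 1.02, 1.08 and 1.08 FPKM in Aclyf/f preadipocytes and at 1.05, 1.80 and 1.29 FPKM in Acly-/- preadipocytes. In adipocytes it stood at 0.0753, 0.0196 and 0.119 FPKM with Acly and at 0.0894, 0.243 and 0.126 FPKM without. Every preadipocyte library lay above every adipocyte library, and the genotypes overlapped at both stages. The mean fell 14.9-fold with differentiation in Aclyf/f cells (log2 fold change -0.94, SE 0.12, adjusted p = 5.64e-06) and 9.02-fold in Acly-/- cells (-1.04, adjusted p = 3.76e-06). The log2 difference between genotypes was 0.20 in preadipocytes (adjusted p = 0.193) and 0.10 in adipocytes (adjusted p = 0.466), neither past the threshold, and both differentiation changes differed by -0.09 (adjusted p = 0.665).

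Wnt5b (chromosome 6, 119432531 to 119544347), the paralog of Wnt5a, stayed under the filter and was not tested. It stood at 0.414, 0.431 and 0.531 FPKM in Aclyf/f preadipocytes and at 0.183, 0.475 and 0.406 FPKM in Acly-/- preadipocytes. In adipocytes it stood at 0.0457, 0.107 and 0.0437 FPKM with Acly and 0.164, 0.118 and 0.0922 FPKM without. As for Wnt5a, preadipocytes lay above adipocytes with no overlap within either genotype.

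The R-spondins, which amplify Wnt signals, had different patterns. Rspo2 (chromosome 15, 43020795 to 43170818) was one of the most abundant of the 10 genes in preadipocytes of both genotypes and was nearly lost in adipocytes, whereas Rspo3 differed by genotype at both stages.

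Rspo2 stood at 68.9, 83.4 and 84.4 FPKM in Aclyf/f preadipocytes and at 82.0, 76.1 and 82.1 FPKM in Acly-/- preadipocytes, with overlapping ranges (log2 fold change 0.03, SE 0.10, adjusted p = 0.862). In adipocytes it stood at 1.13, 0.836 and 1.04 FPKM with Acly and at 1.41, 1.94 and 1.59 FPKM without. The fall with differentiation was 78.7-fold in Aclyf/f cells (log2 fold change -5.32, adjusted p = 2.49e-14) and 48.7-fold in Acly-/- cells (-4.94, adjusted p = 1.5e-13). Adipocytes without Acly had 1.64-fold more Rspo2 than those with it, with no overlap (log2 fold change 0.40, SE 0.10, adjusted p = 0.00439). The difference between both falls was 0.37 on the log2 scale (adjusted p = 0.0432), a call that ended under 11 alternatives, at adjusted p from 0.0526 to 0.107. Among these were testing without a filter (0.103), a replicate block (0.0625) and leaving out, one at a time, any library except replicate 1 of Aclyf/f preadipocytes, Aclyf/f adipocytes and Acly-/- adipocytes.

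Rspo3 (chromosome 10, 29453107 to 29535867) stood at 1.15, 0.808 and 1.27 FPKM in Aclyf/f preadipocytes and at 0.0801, 0.235 and 0.0323 FPKM in Acly-/- preadipocytes. In adipocytes it stood at 1.16, 0.971 and 2.14 FPKM with Acly and at 0.239, 0.156 and 0.0807 FPKM without. Every Acly-/- library thus lay below every Aclyf/f library, and the stages overlapped within each genotype. The mean was 9.28-fold lower without Acly in preadipocytes (log2 fold change -0.89, SE 0.16, adjusted p = 0.000539) and 8.99-fold lower in adipocytes (-1.04, adjusted p = 9.88e-05). Depth limits both folds. The Acly-/- libraries together held an estimated 9.02 fragments in preadipocytes and 14.2 in adipocytes, against 82.5 and 150 in Aclyf/f cells. With differentiation the log2 changes were 0.20 in Aclyf/f cells (adjusted p = 0.268) and 0.06 in Acly-/- cells (adjusted p = 0.778). The genotypes differed in this change by -0.14 (SE 0.22, adjusted p = 0.613).

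All 3 antagonists were lower in Acly-/- than in Aclyf/f preadipocytes, and all 3 fell with differentiation in both genotypes. For each of them the fall was smaller in Acly-/- cells, which started from the lower level. In adipocytes Sfrp1 alone passed the threshold between genotypes, and its order was turned round.

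Sfrp1 (chromosome 8, 23411502 to 23449632) encodes a secreted Frizzled-related protein that binds Wnts. It stood at 73.7, 68.2 and 63.0 FPKM in Aclyf/f preadipocytes and at 25.5, 35.6 and 26.2 FPKM in Acly-/- preadipocytes. In adipocytes it stood at 1.30, 0.945 and 1.11 FPKM with Acly and at 1.84, 2.43 and 1.499 FPKM without. No groups overlapped, so Acly-/- libraries were below Aclyf/f libraries before differentiation and above them after it. Sfrp1 was 2.35-fold lower without Acly in preadipocytes (log2 fold change -1.22, SE 0.14, adjusted p = 1.11e-05). In adipocytes it was 1.72-fold higher (0.46, SE 0.14, adjusted p = 0.0122), a call that ended without Acly-/- adipocyte library 2 (0.34, adjusted p = 0.0631) and without a filter on low values (adjusted p = 0.0593). Differentiation lowered it 61.1-fold in Aclyf/f cells and 15.1-fold in Acly-/- cells, and these log2 changes differed by 1.67 (SE 0.19, adjusted p = 1.26e-05).

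Sfrp2 (chromosome 3, 83766321 to 83774314), a paralog of Sfrp1, stood at 14.6, 13.7 and 14.4 FPKM in Aclyf/f preadipocytes and at 3.84, 5.85 and 4.67 FPKM in Acly-/- preadipocytes. In adipocytes it stood at 0.291, 0.267 and 0.372 FPKM with Acly and at 0.116, 0.189 and 0.294 FPKM without. The preadipocyte groups did not overlap, whereas the adipocyte groups did. It was 2.98-fold lower without Acly in preadipocytes (log2 fold change -1.41, SE 0.12, adjusted p = 6.49e-07), and in adipocytes the log2 difference was -0.13 (adjusted p = 0.37). The fall with differentiation was 45.9-fold in Aclyf/f cells and 24.0-fold in Acly-/- cells, with a difference of 1.28 on the log2 scale (SE 0.16, adjusted p = 3.05e-05).

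Dkk3 (chromosome 7, 112116019 to 112159057) is the most divergent member of the Dkk family, and its effect on Wnt signalling is less settled. It stood at 2.62, 2.48 and 1.85 FPKM in Aclyf/f preadipocytes and at 0.475, 0.533 and 0.518 FPKM in Acly-/- preadipocytes. It was at the floor in 5 of 6 adipocyte libraries, the exception being Acly-/- adipocyte library 2 with 0.0543 FPKM. The preadipocyte groups did not overlap, and the mean was 4.55-fold lower without Acly (log2 fold change -1.13, SE 0.10, adjusted p = 1.44e-06). The fall with differentiation was called in Aclyf/f cells (adjusted p = 2.87e-09) and in Acly-/- cells (adjusted p = 0.000306), and no fold is given against libraries at the floor. The difference between these falls was called as well (adjusted p = 2.44e-05). With adipocytes at or near the floor, it mostly repeats the difference in preadipocytes. Dkk3 passed the filter only through Aclyf/f preadipocytes, so the p-values of contrasts with that group only describe it.

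**Figure D2:**
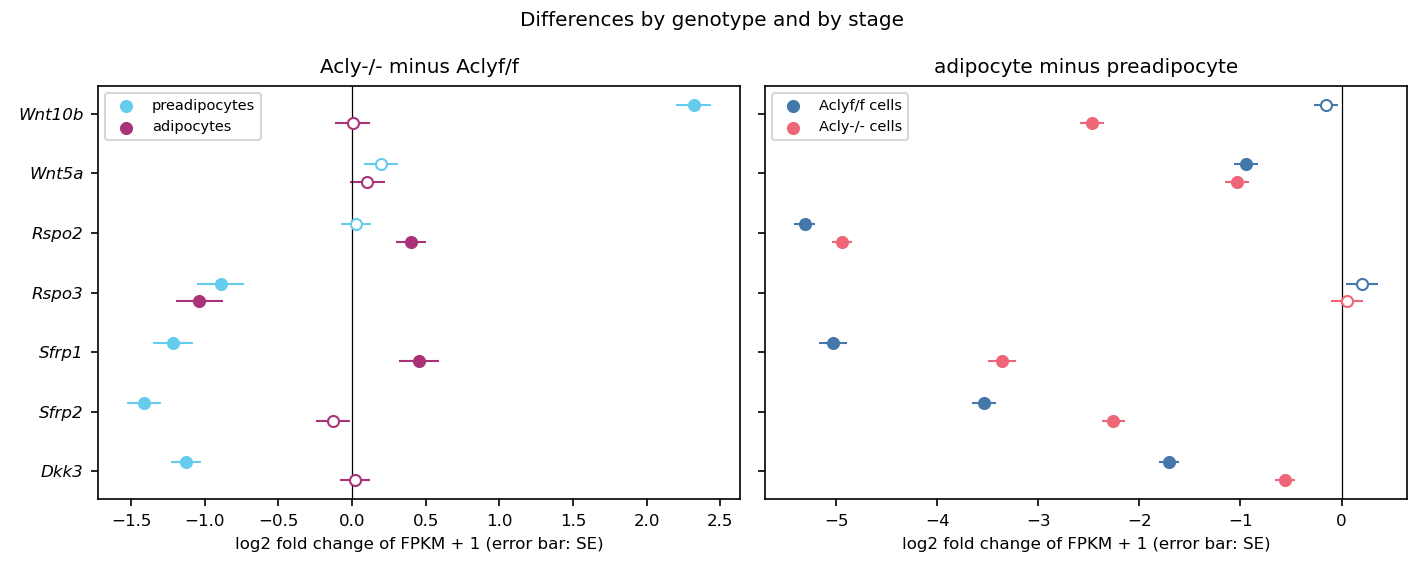
Log2 fold change of FPKM + 1 for the 7 tested genes, on the left for Acly-/- minus Aclyf/f cells and on the right for adipocytes minus preadipocytes. Filled points have a limma adjusted p under 0.05, open points do not, and bars are the SE. Wnt10b is the only gene to the right of 0 that was called in preadipocytes (2.32), Rspo3 is lower at both stages (-0.89 and -1.04), and Sfrp1 lies at -1.22 in preadipocytes and 0.46 in adipocytes.

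FPKM is per length of transcript, so levels can be ranked between genes. In Aclyf/f preadipocytes the order of the mean FPKM was Rspo2 (78.9), Sfrp1 (68.3), Sfrp2 (14.2), Dkk3 (2.32), Rspo3 (1.07), Wnt5a (1.060), Wnt5b (0.459) and Wnt10b (0.137). Neighbours whose library ranges overlapped were Rspo2 with Sfrp1 and Rspo3 with Wnt5a. In Acly-/- preadipocytes Rspo2 again came first (80.05 FPKM) and Sfrp1 followed (29.1). Sfrp2 (4.79 FPKM) and Wnt10b (4.71 FPKM) then stood at levels whose ranges overlapped, above Wnt5a (1.38), Dkk3 (0.509), Wnt5b (0.354) and Rspo3 (0.116). In adipocytes none of the 10 genes exceeded 2.43 FPKM in any library. The order there began with Rspo3 (1.42 FPKM), Sfrp1 (1.12) and Rspo2 (1.00) in Aclyf/f cells, whose ranges overlapped, and with Sfrp1 (1.93) and Rspo2 (1.65) in Acly-/- cells, whose ranges overlapped as well.

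Summed over all 19 Wnt genes of the table, ligand level in preadipocytes was 4.18 ± 0.771 FPKM (SD, n = 3) with Acly and 11.7 ± 1.64 FPKM without, with values at the floor counted as 0. In adipocytes the sums were 0.871 ± 0.0565 and 1.05 ± 0.133 FPKM. The share of Wnt10b in the preadipocyte sum was 3.11% with Acly and 40.4% without. Wnt2, a ligand of the beta-catenin branch, made up 33.9% and 37.2%. For the 10 Sfrp, Dkk and Wif1 genes the sum went the other way, at 118 ± 2.22 FPKM with Acly and 44.3 ± 8.02 FPKM without in preadipocytes, and at 6.27 ± 0.412 and 4.25 ± 0.546 FPKM in adipocytes. Sfrp1 made up 57.9% and 65.7% of the preadipocyte sums. Dkk2 made up 76.9% of the adipocyte sum with Acly and 47.2% without. The ranges of the preadipocyte groups did not overlap in either sum. These sums were not tested.

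**Figure D3:**
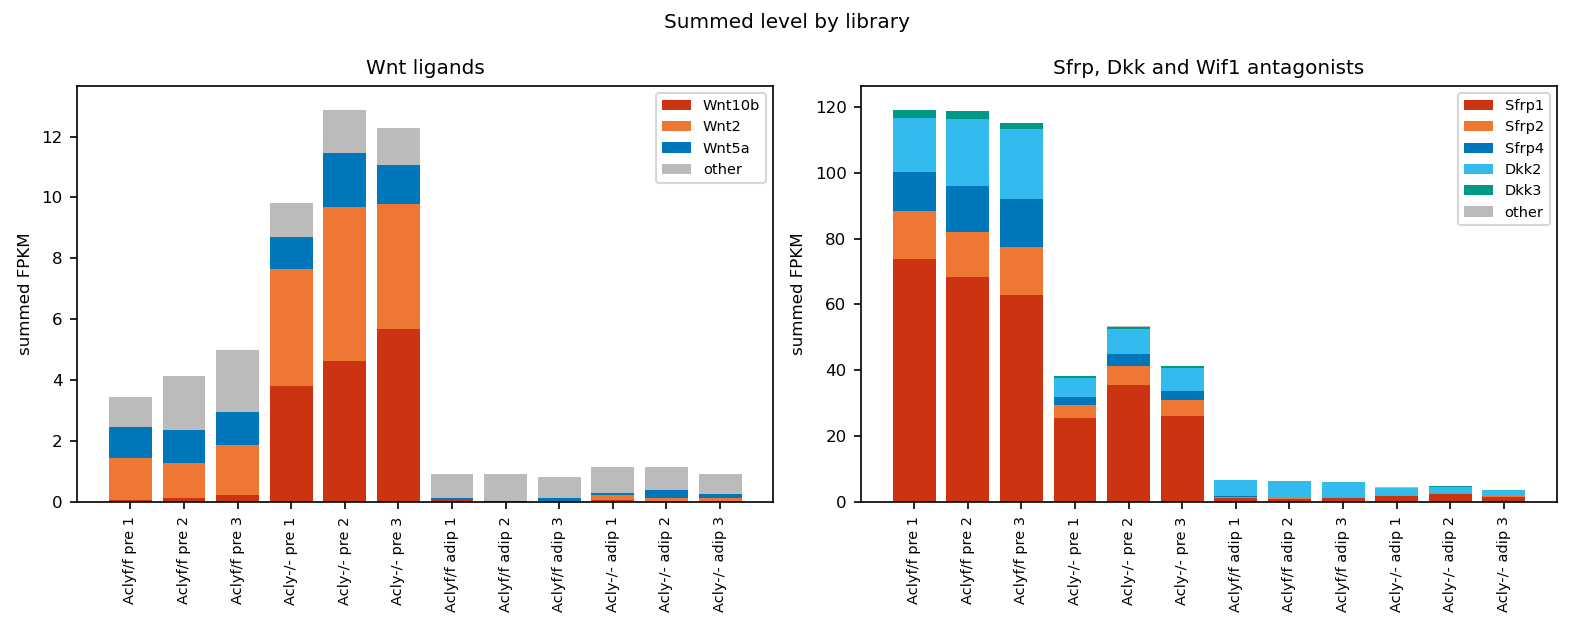
Summed FPKM in each library, for the 19 Wnt genes on the left and for the 10 Sfrp, Dkk and Wif1 genes on the right, with the parts of the leading genes in colour and all others in grey. Values at the floor count as 0. The ligand sums of Acly-/- preadipocytes (9.81 to 12.9) lie above those of Aclyf/f preadipocytes (3.44 to 4.98), and the antagonist sums lie below (38.2 to 53.4 against 115 to 119).

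The other genes of the pathway were taken from 7 lists, from ligands to target genes, and are described by counts and medians. Of 14 other Wnt ligands, 13 stayed under 1 FPKM in every library, and Wnt2 alone was tested. Its level in preadipocytes was 1.40 ± 0.237 FPKM with Acly and 4.33 ± 0.627 FPKM without, 3.09-fold higher (log2 fold change 1.15, SE 0.11, adjusted p = 1.77e-06). In Aclyf/f adipocytes it was at the floor in every library, and in Acly-/- adipocytes it lay between 0.134 and 0.164 FPKM (adjusted p = 0.164 between genotypes, and 0.000602 with a pseudocount of 0.1 FPKM).

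Of 16 other R-spondins and secreted antagonists, 4 were tested. In preadipocytes 1 was higher and 3 were lower without Acly, with a median log2 change of -1.22 beside -0.0122 over all genes. Of all genes tested, 19.7% were higher and 22.4% lower. Sfrp4, a further Frizzled-related protein, went from 13.7 ± 1.41 to 2.95 ± 0.597 FPKM, 4.65-fold lower (log2 fold change -1.90, adjusted p = 4.11e-08). Dkk2, an antagonist at the Lrp co-receptors, went from 19.2 ± 2.63 to 6.86 ± 0.894 FPKM (-1.36, adjusted p = 7.42e-07), and Draxin, a guidance protein that can block Wnt signalling, from 2.08 ± 0.363 to 0.447 ± 0.0665 FPKM (-1.08, adjusted p = 2.73e-06). Draxin passed the filter only through Aclyf/f preadipocytes and Acly-/- adipocytes, so the p-values of all its contrasts only describe it. Igfbp4, which binds insulin-like growth factors and is also listed as a Wnt antagonist, rose from 2.202 ± 0.433 to 17.9 ± 5.44 FPKM (2.53, adjusted p = 7.01e-08).

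In adipocytes 1 of these 4 was higher and 2 were lower without Acly, with a median of -0.44 beside -0.0199 over all genes. Of all genes tested, 25.6% were higher and 29.2% lower. Dkk2 stood at 4.82 ± 0.368 FPKM with Acly and 1.99 ± 0.202 FPKM without (-0.96, adjusted p = 1.03e-05), and Igfbp4 at 210 ± 11.6 and 101 ± 10.6 FPKM (-1.04, adjusted p = 0.000124). Draxin was higher, at 1.67 ± 0.151 against 0.334 ± 0.0772 FPKM (1.00, adjusted p = 3.27e-06), where the p-value again only describes it. With differentiation Igfbp4 rose 95.2-fold in Aclyf/f and 5.68-fold in Acly-/- cells. Both Dkk2 and Sfrp4 fell in both genotypes (log2 changes -1.79 and -3.84 in Aclyf/f cells, -1.39 and -1.86 in Acly-/- cells). In adipocytes Sfrp4 was at or near the floor, with an estimated 0 to 1.03 fragments per library with Acly and 0 to 2.07 without. Draxin fell in Aclyf/f cells (-1.20) and rose in Acly-/- cells (0.88).

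Both genes of Wnt secretion were tested. Porcn, the acyltransferase that attaches the lipid to Wnts, rose with differentiation from 1.82 to 17.9 FPKM in Aclyf/f cells and from 2.48 to 12.8 FPKM in Acly-/- cells (log2 fold changes 2.75 and 1.99). It was lower without Acly in adipocytes (-0.45, adjusted p = 0.00401). Wls, the carrier that brings Wnts to the cell surface, fell with differentiation, from 116 to 65.3 FPKM and from 98.6 to 76.2 FPKM (-0.82 and -0.37).

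Of 16 receptors and co-receptors 11 were tested. In preadipocytes 1 was higher and 6 were lower without Acly (median -0.24), and in adipocytes 5 were higher and 1 was lower (median 0.26). The shares over all genes were 19.7% higher and 22.4% lower in preadipocytes and 25.6% higher and 29.2% lower in adipocytes. Fzd1, a Frizzled receptor, was higher at both stages, at 57.2 against 39.9 FPKM in preadipocytes (log2 fold change 0.50, adjusted p = 0.000351) and 24.9 against 15.3 FPKM in adipocytes (0.67, adjusted p = 1.98e-05). Fzd7 was lower in preadipocytes, at 17.1 against 27.1 FPKM (-0.63, adjusted p = 0.000118), and higher in adipocytes, at 11.9 against 7.71 FPKM (0.57, adjusted p = 0.000171). The co-receptor gene Lrp6 was lower in preadipocytes, at 52.7 against 70.8 FPKM (-0.43, adjusted p = 0.00288). Differentiation lowered 8 of the 11 and raised 1 in Aclyf/f cells, and lowered 7 and raised 2 in Acly-/- cells. Of all genes tested, it lowered 36% and raised 36.5% in Aclyf/f cells, and lowered 31% and raised 30.4% in Acly-/- cells. Fzd4 was the gene raised in both, from 8.31 to 18.9 FPKM and from 5.18 to 17.6 FPKM.

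The receptors of R-spondins and Dkk proteins and the ligases that remove Frizzled receptors made up a list of 7, of which 4 were tested. None passed the limma threshold in preadipocytes (median 0.04), where 42.2% of all genes did. In adipocytes, where 25.6% of all genes were higher without Acly, 2 of the 4 were (median 0.21). These were the R-spondin receptors Lgr4, at 15.8 against 10.2 FPKM (log2 fold change 0.59, adjusted p = 0.000472), and Lgr6, at 3.23 against 1.89 FPKM (0.54, adjusted p = 0.00362). Both fell with differentiation in both genotypes.

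Within the beta-catenin core, 15 of 18 genes were tested. In preadipocytes none was higher and 3 were lower without Acly (median -0.10), and in adipocytes 2 were higher and 6 lower (median -0.24). Over all genes 42.2% were called in preadipocytes and 54.8% in adipocytes, so neither count of this list stands above that of all genes. Ctnnb1, which encodes beta-catenin, was at 171 against 157 FPKM in preadipocytes (log2 fold change 0.12, adjusted p = 0.163) and at 119 against 87.0 FPKM in adipocytes (0.45, adjusted p = 8.5e-05). Dvl1, a Dishevelled gene that relays the signal from Frizzled receptors, was lower in adipocytes, at 17.03 against 33.4 FPKM (-0.93, adjusted p = 3.23e-06).

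Of 15 Wnt target genes 9 were tested, and 6 were higher and 1 was lower without Acly at each stage. Over all genes 19.7% were higher and 22.4% lower in preadipocytes, and 25.6% and 29.2% in adipocytes. The list's median log2 change was 0.55 in preadipocytes and 1.00 in adipocytes, beside -0.0122 and -0.0199 over all genes. Among the 6 in preadipocytes was Apcdd1 (0.39), whose call ended without a filter (adjusted p = 0.0528), with rescaling to the same FPKM sum (0.0546) and without Aclyf/f preadipocyte library 1 or 3 or Acly-/- preadipocyte library 2 (0.0501 to 0.0596). Ccnd1, which encodes cyclin D1, rose from 4.37 ± 0.750 to 18.5 ± 1.59 FPKM in preadipocytes (log2 fold change 1.87, adjusted p = 9.8e-08) and from 0.545 ± 0.152 to 2.10 ± 0.332 FPKM in adipocytes (1.00, adjusted p = 1.67e-05). Wisp2, which encodes a secreted matrix protein, rose from 131 ± 13.7 to 345 ± 72.0 FPKM in preadipocytes (1.37, adjusted p = 1.14e-05) and from 8.46 ± 1.67 to 30.2 ± 2.91 FPKM in adipocytes (1.73, adjusted p = 7.39e-07). Its relative Wisp1 rose less in preadipocytes (0.55, adjusted p = 0.00121) than its 5.41-fold rise in adipocytes (1.74, adjusted p = 2.7e-08), and these differed (1.19, adjusted p = 3.31e-05). Myc rose by 0.71 and 1.03 on the log2 scale. Dact1, whose product binds Dishevelled, was the lower gene in preadipocytes (-0.91), and Apcdd1, a Wnt inhibitor at the cell surface, was the lower gene in adipocytes (-0.88). These targets also answer to other pathways. The 6 target genes that stayed under 1 FPKM in every library were Axin2, Nkd1, Nkd2, Sp5, Tnfrsf19 and Mmp7, singled out here after their values were seen. Axin2, a direct target of beta-catenin in many tissues, had group means of 0.0381, 0.0865, 0.0511 and 0.0193 FPKM in control preadipocytes, preadipocytes without Acly, control adipocytes and adipocytes without Acly.

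**Figure D4:**
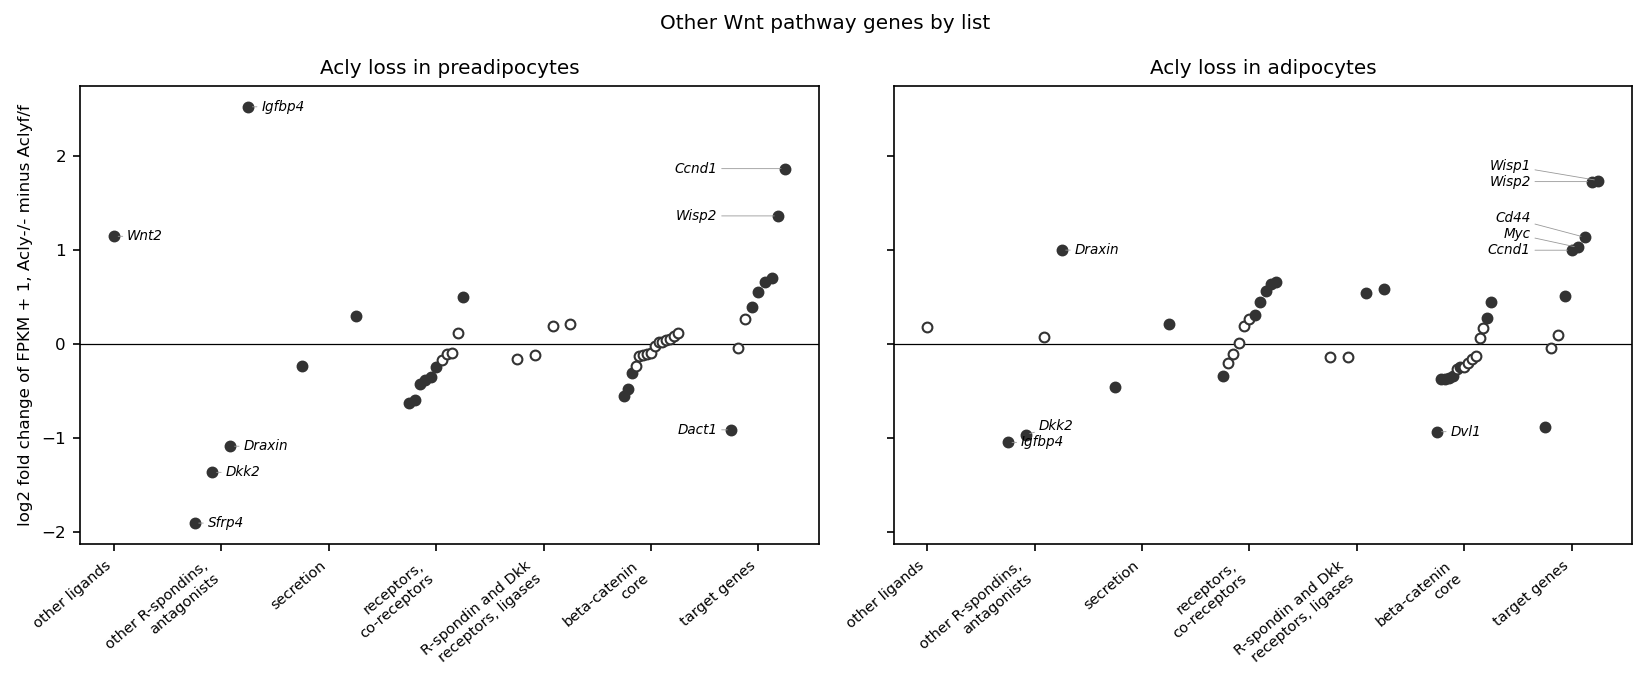
Log2 fold change of FPKM + 1 (Acly-/- minus Aclyf/f) for the tested genes of the 7 other pathway lists, in preadipocytes on the left and adipocytes on the right. Each point is 1 gene, filled where the limma adjusted p is under 0.05, and genes past 0.9 in either direction that were called are named. Sfrp4, Dkk2 and Draxin lie lowest in preadipocytes, and Wisp1, Wisp2, Cd44, Myc, Draxin and Ccnd1 lie highest in adipocytes.

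The genes whose pattern was most like that of each tested gene were found by Pearson's r of log2(FPKM + 1) over the 12 libraries. These points fall into 4 groups of 3, so r mostly reflects group means and is given as a description. For Wnt10b, Gm15133 reached an r of 0.990, with group means of 0.168 and 1.89 FPKM in preadipocytes with and without Acly and of 0.0825 and 0.142 FPKM in the corresponding adipocytes. Thbs1, which encodes the matrix protein thrombospondin, was most like Rspo2 (0.997), falling from means of 1502 and 1265 FPKM in preadipocytes to 15.0 and 29.3 FPKM in adipocytes. Rspo3 had the least close neighbours, L3hypdh (0.962) and Snhg11 (0.954). The nearest to the others were Cgnl1 for Wnt5a (0.987), Camk2g for Sfrp1 (0.997), Lats2 and Fat4 for Sfrp2 (0.994 each) and Pcp4l1 and Tnfrsf11b for Dkk3 (0.996 and 0.994). Among the 10 genes themselves, the closest pairs were Sfrp1 with Sfrp2 (0.983) and Rspo2 with Sfrp1 (0.976). For Wnt10b, r was 0.0565 with Dkk3 and -0.551 with Rspo3. Wnt10b and Dkk3 both stood low in adipocytes but moved in opposite directions when Acly was lost from preadipocytes.

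Markers of other cell types that the cultures could hold were measured beside these genes. Smooth muscle and pericyte markers (6 genes) summed to 412 to 427 FPKM in control preadipocytes and 125 to 139 FPKM in those without Acly. After differentiation they summed to 20.5 to 32.4 FPKM in controls and 45.0 to 52.4 FPKM without Acly. These sums had the order of Sfrp1 across the groups. They were mostly Acta2, which encodes smooth muscle actin (401 and 129 FPKM in preadipocytes with and without Acly, 17.4 and 44.8 FPKM in adipocytes). Myh11, the smooth muscle myosin that defines the type, went another way, at 0.116 and 0.134 FPKM in preadipocytes and at 6.96 and 3.14 FPKM in adipocytes with and without Acly. In each group 4 of the 6 smooth muscle and pericyte markers were under 1 FPKM in all 3 libraries. Macrophage and leukocyte markers (10 genes) summed to 1.37 to 4.22 FPKM in all groups but Acly-/- adipocytes, where they summed to 29.3 to 34.6 FPKM. There Cd68 alone stood at 32.6 FPKM, and Ptprc, Itgam and C1qa, which define leukocytes and macrophages, were at the floor in every library. Osteoblast and chondrocyte markers (8 genes) summed to 15.2 to 16.6 FPKM in control preadipocytes and 20.02 to 22.9 FPKM in those without Acly. In adipocytes they summed to 9.15 to 10.2 and 15.4 to 17.2 FPKM. These sums were mostly Runx2, at 13.4 and 17.8 FPKM in preadipocytes with and without Acly. Alpl went the other way there, at 1.54 and 0.866 FPKM. Sp7, a transcription factor of osteoblasts, had means of 0.576 and 2.24 FPKM in preadipocytes with and without Acly (log2 fold change 0.99). It passed the filter only through Acly-/- preadipocytes, so its limma adjusted p of 0.00107 only describes it. Acan, a cartilage gene, was at the floor in every library. Mesothelial and epithelial markers (7 genes) summed to 1.57 to 2.37 FPKM in control and 4.11 to 6.37 FPKM in Acly-/- preadipocytes, and to 1.11 FPKM at most in adipocytes. These sums were mostly Krt19, a keratin, at 1.78 and 5.13 FPKM in preadipocytes (1.13, adjusted p = 5.95e-05). Endothelial and skeletal muscle markers summed to 5.99 FPKM at most in any library. The part of the smooth muscle, bone, keratin and Cd68 genes in the differences described here was not tested.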

How the data were processed

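RNA of 12 libraries was sequenced, and 1 table of FPKM values for 24341 genes was deposited by the authors, with 1 column per library, per the file headers. Bowtie2 2.2.6, Cufflinks 2.2.1, bcl2fastq and the build mm10 are named, with no role or order, per the submitters' processing notes. The table's annotation, like its filter and strand handling, is not given in the sources used here. Reads of overlapping or antisense genes therefore cannot be told apart. The floor of the table is 0.01 FPKM, and the table holds no counts.

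From these values, log2(FPKM + 1) was fitted with limma 3.58.1 (R 4.3.3) as 4 group means with a trended prior, over the 11777 genes that reached 1 FPKM in 3 or more of 12 libraries. The 5 contrasts were Acly loss in preadipocytes and in adipocytes, differentiation in Aclyf/f and in Acly-/- cells, and the interaction (how far both differentiation changes differ). Printed p-values come from limma with Benjamini-Hochberg adjustment within a contrast, and genes were called under 0.05. The fit was tested on simulated data. A fold is a ratio of mean FPKM, and log2 fold changes understate changes of low genes.

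Depth was estimated from the steps of 1 fragment in genes under 0.3 FPKM. Intervals and fragment numbers cover counting error only. Starts were raised by 1 to count from 1. Python 3.11.15, pandas 2.3.3, numpy 2.4.6 and matplotlib 3.10.9 were used for tables and figures, and promoter sequences are RefSeq's (GRCm38.p6).

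The genes and lists were chosen with earlier results of these data known. From each pathway list, the text may name the called genes with the largest log2 fold change, at most 4 per list and contrast, and those called in all 4 comparisons of groups. For each tested gene the closest 2 genes by Pearson's r were taken. One of these genes is not reported here.

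Replicate numbers recur in each group. Among 18 pairs of same-numbered libraries, correlations of deviations from the group means ran from -0.414 to 0.147, and only between preadipocytes and adipocytes of Acly-/- cells were all 3 over 0.1 (0.123, 0.147 and 0.124). Negative values in other groups were larger in size, so these correlations cannot show that the numbers pair any groups. No label says that they do.

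Alternatives were another pseudocount (0.1), a filter of 5 FPKM or none, quantile and median-of-ratios scaling, rescaling to the same FPKM sum, moderation without a trend, a replicate block and leaving out each library.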

Additional observations from a re-analysis of the deposited data

Results flagged for a closer look

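For 27 of the genes named by the rule for named genes the change with differentiation differed between Acly-/- and Aclyf/f cells by limma's test of the difference itself, and each value is that difference on the log2(FPKM + 1) scale (Acly-/- minus Aclyf/f). Of all genes tested, 50.2% passed the same test. The named genes were the 7 tested genes and 36 pathway genes. The 36 were named because they were called in at least 1 contrast, and this test was among those contrasts. The count of 27 was therefore partly fixed in advance and cannot be compared with that share.

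Among the genes described here, the difference was -2.31 for Wnt10b, which fell with differentiation in Acly-/- cells. It was 1.67 for Sfrp1, 1.28 for Sfrp2, 1.15 for Dkk3 and 0.37 for Rspo2, all of which fell less in Acly-/- cells. Wnt10b, Sfrp2 and Dkk3 were not called between genotypes in adipocytes. Their values mostly repeat the difference in preadipocytes (2.32, -1.41 and -1.13) with the sign turned.

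Among other secreted factors and genes of Wnt secretion it was -0.97 for Wnt2 (adjusted p = 0.292 with a pseudocount of 0.1 FPKM), -3.57 for Igfbp4, 1.98 for Sfrp4, 2.09 for Draxin, -0.76 for Porcn and 0.46 for Wls. Igfbp4 rose less in Acly-/- cells. Sfrp4 was not called between genotypes in adipocytes, and its value mostly repeats the difference in preadipocytes (-1.90) with the sign turned. Draxin passed the filter only through Aclyf/f preadipocytes and Acly-/- adipocytes, so its call only describes it.

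Among receptors it was 1.20 for Fzd7, 0.49 for Fzd4, 0.44 for Lrp6, 0.74 for Fzd5, 0.68 for Ryk, 0.70 for Ptk7 and 0.70 for Lgr6. The calls of Fzd4 and Lrp6 ended without a filter on low values (adjusted p = 0.145 and 0.0511) and with rescaling to the same FPKM sum (0.0895 and 0.0641). That of Fzd4 also ended with a replicate block (0.0528) and in 8 fits that left out 1 library (0.0617 to 0.113), these being replicates 2 and 3 of Aclyf/f preadipocytes, 1 and 3 of Acly-/- preadipocytes, 1 and 3 of Aclyf/f adipocytes and 1 and 2 of Acly-/- adipocytes.

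In the beta-catenin core it was -0.91 for Dvl1, 0.33 for Ctnnb1, -0.43 for Gsk3a and 0.41 for Csnk1a1. The call of Csnk1a1 ended without a filter (adjusted p = 0.0604), with rescaling to the same FPKM sum (0.0611) and without Aclyf/f preadipocyte library 3 (0.0501). Axin1, a scaffold of the complex that degrades beta-catenin, was also called (-0.27, adjusted p = 0.0439), outside that rule and named here after its value was seen. Among target genes it was -0.87 for Ccnd1 (adjusted p = 0.403 with a pseudocount of 0.1 FPKM), 0.87 for Dact1, 1.19 for Wisp1, 1.18 for Cd44 and -1.27 for Apcdd1.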

How the results depend on the processing

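Of 650 values of the 7 tested genes under the alternatives, 636 stayed on their side of the threshold, 13 lost a call, 1 gained one, and 0 called values changed sign. Small values that were not called could change sign (of Wnt10b, Wnt5a, Rspo2, Rspo3 and Dkk3). The losses were Rspo2 (difference between genotypes in differentiation) and Sfrp1 (adipocytes), and the gain was Wnt10b in Aclyf/f cells with a pseudocount of 0.1 FPKM. Of 3585 values of 36 named pathway genes, 3484 stayed on their side, 61 lost a call, 40 gained one and 0 called values changed sign. With a filter of 5 FPKM only Rspo2, Sfrp1 and Sfrp2 are tested, and the number called was 2 for Acly loss in preadipocytes and 3 for each change with differentiation and for the difference between genotypes in it. With 1 library left out, the number called for the difference between genotypes ran from 3 to 5. It was 3 without replicate 2 or 3 of Aclyf/f preadipocytes or without any single replicate of Acly-/- preadipocytes, where Dkk3 or Wnt10b no longer passes the filter and Rspo2 lost its call. With a replicate block, which pairs libraries by number, the genes called in all were 4573, 6125, 8352, 6954 and 5516 for the 5 contrasts in the order of the methods. Of the 7 genes only Rspo2 lost a call under it (difference between genotypes, adjusted p = 0.0625). Depth limits Wnt10b, Wnt6 and Dkk3 in adipocytes, where libraries hold 0 to 2 fragments. It also limits Wnt5a (1.83 to 18.4 fragments per library), Wnt5b (1.13 to 3.39) and Sfrp2 (2.03 to 8.16) in adipocytes. Rspo3 is limited in Acly-/- cells (1.29 to 6.41). The folds that rest on these libraries are imprecise.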
